A study of Mus musculus with 12 samples.

Results

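The transcripts described here encode the enzymes that remove reactive oxygen species, the small thiol proteins and reductases that keep them working, and a few genes that control or oppose them. The 35 genes were chosen by symbol from the deposited tables, which hold 25319 genes, and all 35 had a row of reads. Male C57BL/6 mice aged 12 weeks gave RNA of the left ventricle, with 3 separate mice in each of 4 groups. TAC dantrolene and TAC control mice had transverse aortic constriction (TAC) at 8 weeks of age, a clip on the aortic arch that makes the ventricle pump against a raised pressure. Sham dantrolene and sham control mice had the same operation without the clip. The dantrolene groups took the drug orally over 4 weeks, 30 mg/kg each day, and the labels name no vehicle for the control groups. Dantrolene is a muscle relaxant that inhibits ryanodine receptors, through which muscle cells release stored calcium. The study concerned what the drug changes in hypertrophy of the heart.

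Superoxide, which leaks from mitochondria or is made by NADPH oxidases, is turned into hydrogen peroxide by superoxide dismutases. Catalase, glutathione peroxidases and peroxiredoxins then reduce the peroxide, and the glutathione and thioredoxin systems return them to their reduced state with electrons from NADPH. The heart respires heavily and holds many mitochondria, so most of these enzymes are standing equipment of the cardiomyocyte. A part of the genes is inducible: NRF2 (gene Nfe2l2), held back by KEAP1, binds antioxidant response elements in their promoters, and metallothioneins are induced through metal response elements and by glucocorticoids.

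Libraries held 25766378 to 38363106 reads, and mitochondrial transcripts took 1.71% to 22.4% of them. Levels are given as CPM, reads relative to a TMM-scaled library size, and as FPKM, the authors' values scaled to library size and gene length, where genes are compared with each other. A gene was tested if edgeR's filterByExpr kept it, which left 14965 genes and 33 of the 35. On the first principal component (41.7% of the variance) 1 library of each group stood apart from the other 8: TAC dantrolene 1, TAC control 1, sham dantrolene 3 and sham control 3. Their scores were 34.7 to 85.6, against -50.7 to -22.7 in the other 8. Results are therefore given with and without these 4 libraries, which leaves 2 mice a group. The summed level of 8 cardiomyocyte markers was 57228 to 61285 CPM in TAC dantrolene, 53529 to 58881 CPM in TAC control, 45140 to 56210 CPM in sham dantrolene and 54816 to 60739 CPM in sham control hearts, with no marker at 0. Skeletal actin (Acta1), which hypertrophic mouse hearts express again, stood at 229.8, 312 and 146 CPM in TAC dantrolene hearts, 887, 3708 and 2614 CPM in TAC control hearts, 232, 324 and 343 CPM in sham dantrolene hearts and 268, 267 and 314 CPM in sham control hearts. All 3 TAC control libraries lay above the other 9, and TAC control 1 was the lowest of the 3.

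Among the 34 genes with an FPKM value, mean FPKM over the 12 libraries spanned 1615 for Gpx4 to 0.045 for Nox4. The 4 highest were Gpx4 (mean 1615 ± 911 FPKM, SD over 12 libraries), which reduces lipid peroxides in membranes, the mitochondrial and peroxisomal peroxiredoxin Prdx5 (538 ± 143 FPKM), the cytosolic copper-zinc dismutase Sod1 (449.8 ± 55.6 FPKM) and metallothionein Mt1 (355 ± 114 FPKM). The 4 lowest with a value were Nox4 (0.045 FPKM), the catalytic oxidase subunit Cybb (0.446 ± 0.282 FPKM) and both subunits of glutamate-cysteine ligase, Gclc (1.17 ± 0.62 FPKM) and Gclm (2.81 ± 1.16 FPKM). Next in rank below the top were Prdx2 (351 ± 79 FPKM), Gpx3 (277 ± 91 FPKM) and Prdx3 (272 ± 54 FPKM), whose ranges over libraries overlapped with that of Mt1. Slc7a11, the cystine importer, had 1 read in the whole series, in sham dantrolene 3, and no FPKM value. The steadiest genes were Gstm1 and Sod1, whose highest library was 1.46 and 1.52 times the lowest in FPKM, and the most variable with reads in every library was Mt2, at 8.67 times.

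**Figure D1:**
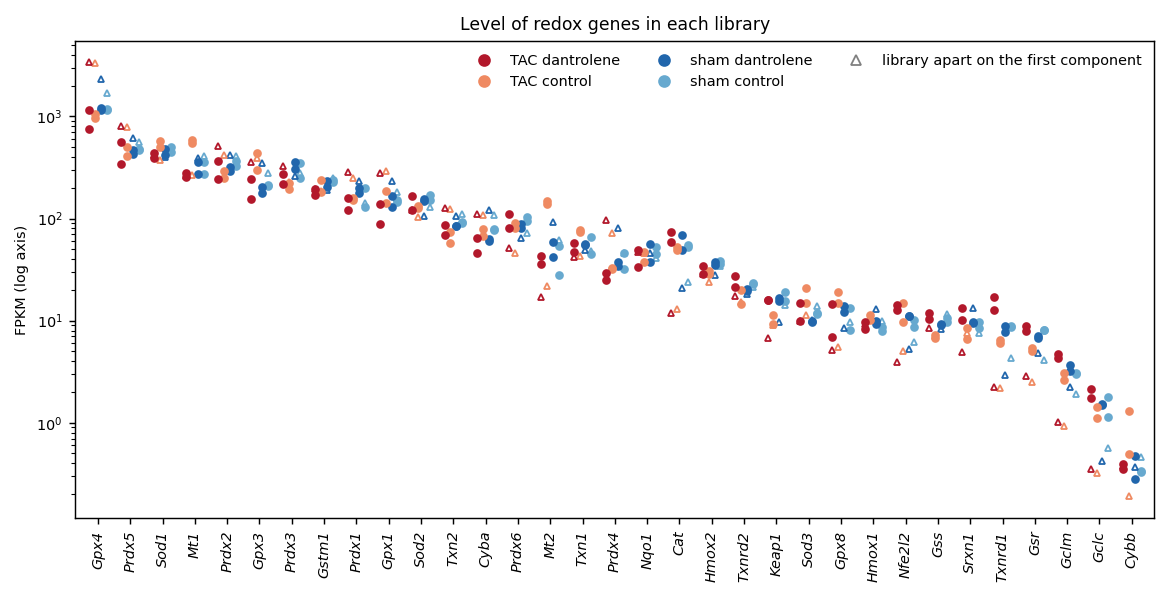
FPKM (vertical log axis) of the 33 redox genes that were tested, ordered by mean level, in each of the 12 libraries. Points are coloured by group, with TAC dantrolene at the left within each gene, then TAC control, sham dantrolene and sham control, and open triangles mark the 4 libraries apart. Gpx4 has the highest mean (1615 FPKM) and Cybb the lowest (0.446 FPKM), and in Gpx4, Cat, Txnrd1 and Gclc the triangles separate from the circles.

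In the 4 groups no redox gene passed the test between any pair. With edgeR's quasi-likelihood test and Benjamini-Hochberg adjustment over 14965 genes, 0 of 33 genes were called at an adjusted p under 0.05 for TAC control against sham control (background 0%), TAC dantrolene against TAC control (0%), sham dantrolene against sham control (0%), TAC dantrolene against sham dantrolene (0%), the interaction of drug and surgery (0%), all TAC against all sham (0%) and all dantrolene against all control hearts (0%). The same test called 0 of the 14965 genes in each. DESeq2's Wald test also called 0 of the 33 in each. Over all genes DESeq2 called 83 (0.555%), 12 (0.0802%), 0 (0%), 4 (0.0267%), 1 (0.00668%), 55 (0.368%) and 1 (0.00668%) in that order.

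In the fit of 12 libraries an unadjusted p under 0.05 was rare among the redox genes. By edgeR 1 of 33 had one for TAC control against sham control, Mt2, which was higher (3.03%, background 7.93%, of which 4.13% higher and 3.8% lower). In TAC dantrolene against TAC control hearts 2 of 33 had one, Mt1 and Mt2, both lower (6.06%, background 3.25%, of which 1.78% higher and 1.47% lower). The interaction had 1 of 33, Mt2, which was negative (3.03%, background 2.82%, of which 1.55% positive and 1.27% negative). There were 0 of 33 for sham dantrolene against sham control (background 0.715%, 0.327% higher and 0.388% lower) and for TAC dantrolene against sham dantrolene (1.71%, 1.06% higher and 0.648% lower). There were also 0 of 33 for all TAC against all sham (6.78%, 4.77% higher and 2% lower) and all dantrolene against all control hearts (1.04%, 0.461% higher and 0.581% lower). With so few genes past this limit, the shares are read as near the background. Without the libraries apart edgeR gave 10 of 34 (29.4%) for TAC control against sham control. It gave 14 of 34 (41.2%) for TAC dantrolene against TAC control, 9 of 34 (26.5%) for the interaction and 0 to 8 of 34 for the others. These counts include Nox4 and rest on 2 mice a group. No background share is given for them, so they are not read as a result about the redox genes.

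The median of the redox genes moved with the libraries included. For TAC control against sham control their median log2 fold change was 0.20, against 0.10 over all genes, with 21 positive and 12 negative. Scaled by the authors' FPKM, where the median of all genes moved to -0.18, that of the redox genes was -0.09, with 15 positive and 18 negative, so the sign of the median turned. For TAC dantrolene against TAC control it was -0.01 against 0.02 over all genes, with 16 positive and 17 negative. Without the libraries apart that median was -0.25, against 0.05 over all genes, with 11 positive and 23 negative of 34, and without TAC dantrolene 1 alone it was -0.58. On the FPKM scale the median of all genes was 0.13 for this comparison and 0.21 for the interaction. The 2 comparisons share the TAC control hearts, so their folds are given side by side and not compared. Within 1 SE of no difference lay 18 of 33 genes for TAC control against sham control and 20 of 33 for TAC dantrolene against TAC control.

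**Figure D2:**
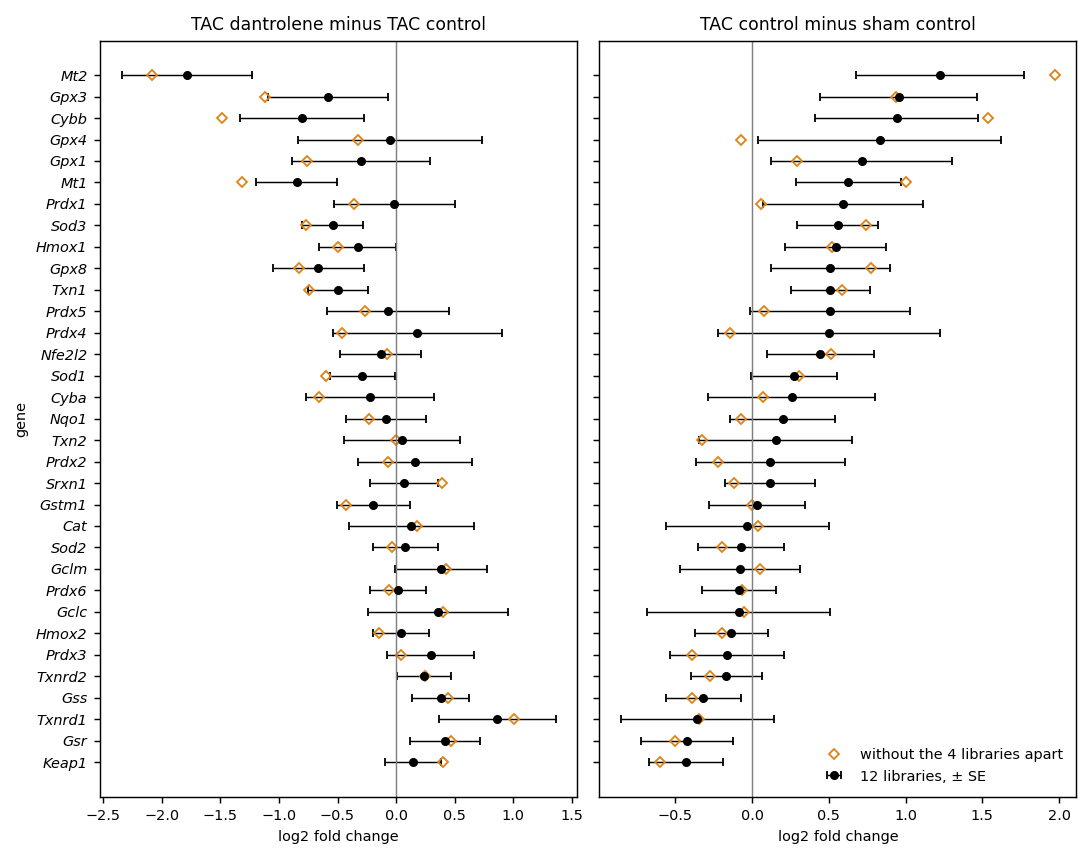
Log2 fold change (horizontal axis) of 33 redox genes for TAC dantrolene minus TAC control (left) and TAC control minus sham control (right). Black points with bars are the fit of 12 libraries ± SE, and orange diamonds are the fit without the 4 libraries apart. Mt2 has the most negative fold at left (-1.79 ± 0.56) and the most positive at right (1.23 ± 0.55).

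The metallothioneins, small cysteine-rich proteins that bind zinc and copper and scavenge radicals, gave the smallest p of all redox genes. Mt1 (ENSMUSG00000031765.7, chromosome 8, 94179082 to 94180327, plus strand, GRCm38) and Mt2 (ENSMUSG00000031762.6, chromosome 8, 94172664 to 94173568, plus strand) lie next to each other. Mt2 stood at 15.8, 22.1 and 20.9 CPM in TAC dantrolene hearts, 19.9, 90.6 and 92.1 CPM in TAC control hearts, 24.7, 34.3 and 71.2 CPM in sham dantrolene hearts and 16.4, 29.7 and 40.7 CPM in sham control hearts, given here and below for mice 1 to 3 of each group. TAC control 2 and 3 were the highest of the 12 libraries, while TAC control 1 lay within the range of the sham control hearts. The log2 fold change was 1.23 ± 0.55 (SE, n = 3 each) for TAC control against sham control (edgeR, unadjusted p = 0.044, Benjamini-Hochberg adjusted p = 0.618). For TAC dantrolene against TAC control it was -1.79 ± 0.56 (edgeR, unadjusted p = 0.0072, Benjamini-Hochberg adjusted p = 0.9997). The ranges overlapped in both, since TAC control 1 had a lower Mt2 level than TAC dantrolene 2 and 3. The interaction, which asks whether the drug difference depends on the surgery, was -2.37 ± 0.77 (edgeR, unadjusted p = 0.0095, adjusted p = 0.9995).

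Mt1 showed the same libraries at the top. It stood at 238, 141 and 143 CPM in TAC dantrolene hearts, 233, 374 and 333 CPM in TAC control hearts, 155, 205 and 290.0 CPM in sham dantrolene hearts and 156, 191 and 261 CPM in sham control hearts. TAC control 2 and 3 were again above the other 10 libraries, and the groups overlapped. The log2 fold change was 0.63 ± 0.34 for TAC control against sham control and -0.85 ± 0.34 for TAC dantrolene against TAC control (edgeR, unadjusted p = 0.029, Benjamini-Hochberg adjusted p = 0.9997).

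Without the 4 libraries apart both metallothioneins were called. The test then called 2 of 33 redox genes, Nox4 aside, in TAC control against sham control, Mt1 and Mt2, both higher (6.06%, background 3.21%, of which 1.18% higher and 2.03% lower). Mt2 rose by 1.97 ± 0.28 log2 units (edgeR adjusted p = 0.0117) and Mt1 by 1.01 ± 0.21 (edgeR adjusted p = 0.0351). In TAC dantrolene against TAC control Mt2 had a log2 fold change of -2.09 ± 0.28 (edgeR adjusted p = 0.0148) and Mt1 of -1.32 ± 0.21 (edgeR adjusted p = 0.0221). Here 4 of 33 redox genes were called (12.1%, background 3.17%), of which 3 were lower (Mt1, Mt2 and Gpx3, background 1.53%) and 1 higher (Txnrd1, background 1.65%). Nox4 is left out of both counts, since it passed the low-count filter only through the TAC control hearts, where it is high. These calls rest on 2 mice a group, chosen by how the whole library behaved. Without the 4 libraries 0 redox genes were called in the interaction (background 0.0465%, 0.0133% positive and 0.0332% negative), all TAC against all sham (0.445%, 0.299% higher and 0.146% lower) and the other 3 comparisons (0%). The interaction was then -2.47 ± 0.39 for Mt2 (edgeR adjusted p = 0.0627). With all 12 libraries and a term for the libraries apart, edgeR called 0 redox genes for TAC control against sham control (background 0.14%), all TAC against all sham (0.0401%) or any other comparison (0%).

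Several other transcripts were high in the same libraries. The summed level of 8 fibroblast markers was 414 to 733 CPM in TAC dantrolene hearts, 428 to 1467 CPM in TAC control hearts, 603 to 724 CPM in sham dantrolene and 449 to 585 CPM in sham control hearts, with no marker at 0. TAC control 2 and 3 held the highest sums, 1232 and 1467 CPM. Without the 4 libraries apart 4 of the 8 markers (Col1a1, Col1a2, Col3a1 and Postn) were higher in TAC control than in sham control hearts (background 1.18%), and the same 4 were lower in TAC dantrolene than in TAC control hearts (background 1.53%). In the same fit the macrophage marker Lyz2 and the endothelial marker Fabp4 were higher in TAC control than in sham control hearts. They are 1 of 8 and 1 of 6 of their lists (background 1.18%). Both were lower in TAC dantrolene than in TAC control hearts, as were the macrophage markers Fcgr1 and C1qa (background 1.53%). The cardiomyocyte marker Myh6 was higher there (1 of 8, background 1.65%). The part of these cells in the metallothionein values was not tested, and in bulk tissue a change in the number of cells of a type and a change in RNA per cell cannot be told apart. The inducible heat shock gene Hspa1a, taken up after its values were seen, stood at 10.5, 14.7 and 129.6 CPM in TAC dantrolene hearts, 7.99, 156 and 157 CPM in TAC control hearts, 13.1, 10.8 and 5.70 CPM in sham dantrolene hearts and 4.58, 5.89 and 4.27 CPM in sham control hearts. TAC control 2 and 3 and TAC dantrolene 3 were its highest libraries, and its relation to Mt2 was not tested. Mt2 shares 432 of its 588 exonic bases with the antisense gene Gm45774 on the other strand. The strand setting of the counting is not given in the sources used here, so reads of that antisense gene cannot be told from those of Mt2.

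**Figure D3:**
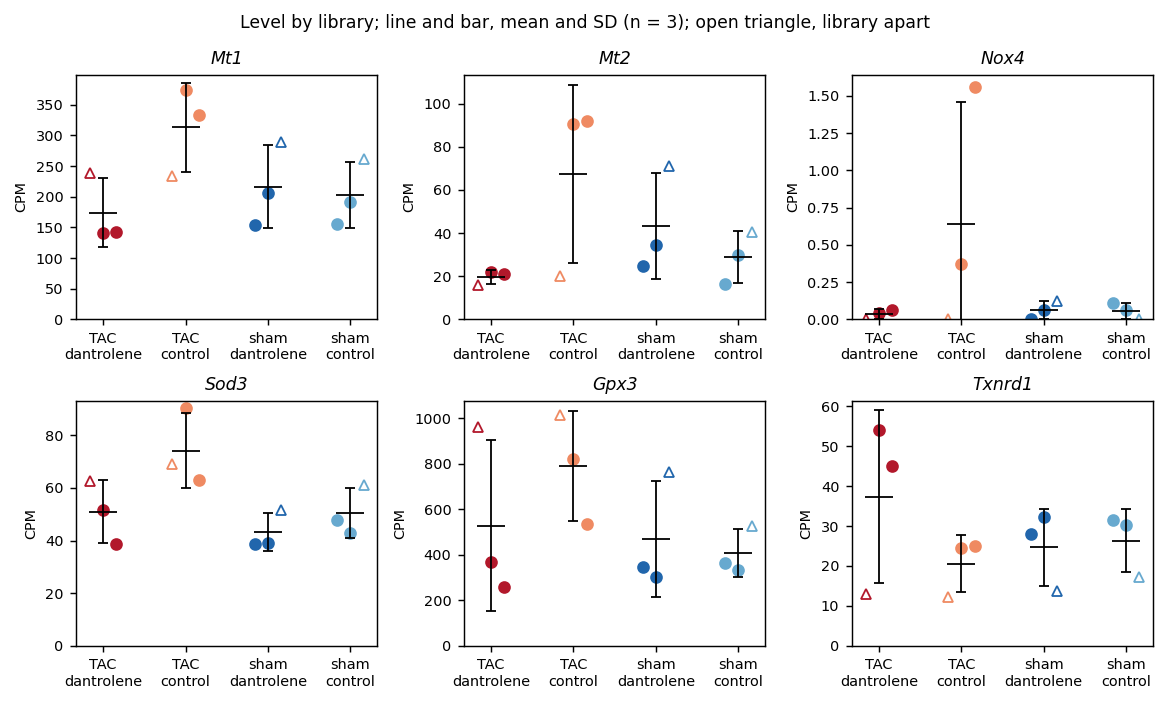
CPM (vertical axis) of Mt1, Mt2, Nox4, Sod3, Gpx3 and Txnrd1 in each library, with TAC dantrolene at the left, then TAC control, sham dantrolene and sham control. The line and bar are the mean and SD of 3 mice, with bars that pass below 0 cut at the axis, and open triangles are the 4 libraries apart. In Mt2 TAC control 2 and 3 (90.6 and 92.1 CPM) lie above the other libraries, and in Txnrd1 all 4 triangles lie at 12.3 to 17.2 CPM.

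The promoters of the metallothioneins and of 1 start of Txnrd1 are printed because these genes were called without the libraries apart and carry the elements that metals and NRF2 act on. They come from RefSeq (GRCm38.p6) and span 250 bases before to 50 after the annotated start, 5′ to 3′ on the gene's strand. Capitals in the metallothionein promoters mark the metal response element core TGCNCNC on either strand, and in the Txnrd1 promoter the antioxidant response element core TGACNNNGC on either strand.
Mt1, chr8:94178839-94179138, plus strand: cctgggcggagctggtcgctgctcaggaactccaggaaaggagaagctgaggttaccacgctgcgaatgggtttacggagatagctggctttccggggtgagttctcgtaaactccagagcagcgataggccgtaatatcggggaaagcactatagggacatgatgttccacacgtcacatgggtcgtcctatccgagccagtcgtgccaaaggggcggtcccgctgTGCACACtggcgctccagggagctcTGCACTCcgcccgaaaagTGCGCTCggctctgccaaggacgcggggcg
Mt2, chr8:94172368-94172667, plus strand: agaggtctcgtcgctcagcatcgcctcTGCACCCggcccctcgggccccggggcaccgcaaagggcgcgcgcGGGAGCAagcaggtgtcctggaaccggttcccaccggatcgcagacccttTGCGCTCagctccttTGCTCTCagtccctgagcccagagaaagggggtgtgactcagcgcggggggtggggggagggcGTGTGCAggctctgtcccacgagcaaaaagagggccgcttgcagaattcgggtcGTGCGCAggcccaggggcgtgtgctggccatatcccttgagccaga
Txnrd1, chr10:82858956-82859255, plus strand: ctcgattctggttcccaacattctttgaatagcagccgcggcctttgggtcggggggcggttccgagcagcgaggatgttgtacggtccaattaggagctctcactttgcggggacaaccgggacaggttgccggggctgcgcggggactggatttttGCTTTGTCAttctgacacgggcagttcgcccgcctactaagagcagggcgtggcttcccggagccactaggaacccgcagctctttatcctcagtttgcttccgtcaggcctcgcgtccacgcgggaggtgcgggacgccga
Mt2 held 6 matches to the metal response core, at -223, -178, -128, -113, -50 and 5 from the start, and Mt1 held 3, at -23, 3 and 21. At least 4 matches occurred in 2.30% of 32841 promoters of this length, at least 2 in 20.2% and at least 1 in 51.0%. RefSeq promoters were matched for 30 of the 35 redox genes. At least 1 metal response core was present for 15 of the 30, or 50% against 53.6% of 27018 genes with a promoter.

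The antioxidant response core was present for 7 of the 30 redox genes, or 23.3% against 14.0% of all genes. The sites are shown because NRF2 binds such elements, each written in the direction of the motif with its core letters in capitals.
Prdx1, minus strand at -133: TGACTCAGC
Mt2, plus strand at -79: TGACTCAGC
Nfe2l2, plus strand at -240: TGACTCCGC
Gclm, minus strand at -134: TGACGGTGC
Sod1, minus strand at -56: TGACCACGC
Srxn1, minus strand at 29: TGACCTAGC
Txnrd1, minus strand at -92: TGACAAAGC
Of these only the element of Gclm overlapped with a metal response core. A match of letters is no evidence of binding. In the fit of 12 libraries the log2 fold changes of these 7 genes for TAC control against sham control ran in both directions: Mt2 1.23 ± 0.55, Prdx1 0.59 ± 0.52, Nfe2l2 0.44 ± 0.35, Sod1 0.27 ± 0.28, Srxn1 0.12 ± 0.29, Gclm -0.08 ± 0.39 and Txnrd1 -0.36 ± 0.50. That of Srxn1 turned negative on the FPKM scale.

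Of the superoxide dismutases, the extracellular enzyme Sod3 (ENSMUSG00000072941.5, chromosome 5, 52363791 to 52371418, plus strand), which coats matrix and vessel walls, had the smallest p. Sod3 stood at 62.7, 51.5 and 38.8 CPM in TAC dantrolene hearts, 69.2, 90.4 and 63.1 CPM in TAC control hearts, 38.9, 39.2 and 51.7 CPM in sham dantrolene hearts and 47.7, 42.8 and 61.0 CPM in sham control hearts. In CPM every TAC control heart was above every sham control heart and above every TAC dantrolene heart. In FPKM both pairs overlapped, at 11.37 to 20.67 in TAC control, 11.51 to 13.83 in sham control and 9.97 to 14.75 in TAC dantrolene. Sod3 had a log2 fold change of 0.56 ± 0.26 for TAC control against sham control (edgeR, Benjamini-Hochberg adjusted p = 0.639) and -0.54 ± 0.26 for TAC dantrolene against TAC control (edgeR, adjusted p = 0.9997). Without the libraries apart these were 0.74 ± 0.23 (edgeR adjusted p = 0.0907) and -0.77 ± 0.23 (edgeR adjusted p = 0.0882). Sod1 stood at 449, 262 and 264 CPM in TAC dantrolene hearts, 394, 430.4 and 365 CPM in TAC control hearts, 327, 285 and 358 CPM in sham dantrolene hearts and 345, 289 and 351 CPM in sham control hearts. TAC control hearts again lay above sham control hearts in CPM, while the FPKM ranges overlapped. The log2 fold change was 0.27 ± 0.28, and TAC dantrolene 1 had the highest CPM of the 12. The mitochondrial enzyme Sod2 differed by -0.07 ± 0.28.

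Groups that do not overlap in CPM were counted for all genes. In TAC control against sham control 3 of 33 redox genes lay wholly higher, Sod1, Sod3 and Gpx3 (9.09%, background 7.54%), and 1 lay wholly lower, Keap1 (3.03%, background 9.82%). In TAC dantrolene against TAC control 0 lay wholly higher (background 2.68%) and 1 wholly lower, Sod3 (3.03%, background 2.08%). In sham dantrolene against sham control 1 lay wholly higher, Srxn1 (3.03%, background 2.99%), and 0 wholly lower (background 4.38%). In TAC dantrolene against sham dantrolene 0 lay wholly higher (background 2.9%) and 1 wholly lower, Mt2 (3.03%, background 1.96%). All these shares lie within a few percentage points of the background, save the lower share in TAC control against sham control, which was below it. On the FPKM scale Sod1, Sod3, Srxn1 and Mt2 overlapped in the comparisons named, while Gpx3 and Keap1 did not. Some genes that overlapped in CPM were apart in FPKM. TAC control lay below sham control hearts in Gss, Txnrd2, Hmox2 and Prdx3, and above in Hmox1. TAC control also lay below TAC dantrolene hearts in Gss and above in Hmox1. Sham dantrolene lay below sham control hearts in Sod3, Gss and Txnrd2. No background was counted on that scale.

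Catalase and the glutathione peroxidases, which break down hydrogen peroxide and lipid peroxides, are given with Gpx3 first, whose groups did not overlap between TAC control and sham control hearts. Gpx3, the secreted plasma enzyme (ENSMUSG00000018339.9, chromosome 11, 54902453 to 54910377, plus strand), stood at 959, 366 and 259 CPM in TAC dantrolene hearts, 1016, 819 and 534 CPM in TAC control hearts, 346, 300.4 and 763 CPM in sham dantrolene hearts and 362, 333 and 526 CPM in sham control hearts. TAC control hearts lay above sham control hearts, with a log2 fold change of 0.96 ± 0.51 (edgeR, Benjamini-Hochberg adjusted p = 0.666). The highest libraries of the other groups were again those apart. Without them Gpx3 in TAC dantrolene hearts was lower than in TAC control hearts by a log2 fold change of -1.12 ± 0.25 (edgeR adjusted p = 0.0436), against -0.58 ± 0.51 with all 12 libraries.

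Gpx4 stood at 7201, 1366 and 1007 CPM in TAC dantrolene hearts, 6976, 1568 and 1391 CPM in TAC control hearts, 1571, 1615 and 4051 CPM in sham dantrolene hearts and 1594, 1470.0 and 2521 CPM in sham control hearts. TAC dantrolene 1 and TAC control 1 had about the same level, far above the other libraries of both groups. It differed by a log2 fold change of -0.05 ± 0.79 for TAC dantrolene against TAC control and 0.83 ± 0.79 for TAC control against sham control, and the second was -0.07 ± 0.21 without the libraries apart. The cytosolic enzyme Gpx1 had 0.71 ± 0.59 for TAC control against sham control and 0.29 ± 0.23 without these libraries. Gpx8, a peroxidase of the endoplasmic reticulum, stood at 8.71, 6.59 and 15.4 CPM in TAC dantrolene hearts, 9.19, 17.5 and 21.9 CPM in TAC control hearts, 13.1, 14.99 and 11.8 CPM in sham dantrolene hearts and 14.4, 8.15 and 11.6 CPM in sham control hearts. Its log2 fold change for TAC dantrolene against TAC control was -0.66 ± 0.39, with overlapping ranges. Catalase (Cat), the peroxisomal enzyme, differed by -0.03 ± 0.53 for TAC control against sham control, while it stood at 51.5 to 74.9 CPM in the 4 libraries apart and at 136 to 199 CPM in the other 8.

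Of the 6 peroxiredoxins and sulfiredoxin (Srxn1), which repairs over-oxidised peroxiredoxins, none had an unadjusted p under 0.05 in any comparison with all 12 libraries. Their log2 fold changes for TAC control against sham control were -0.16 to 0.59, with 5 of 7 positive, and 3 of 7 positive on the FPKM scale. For TAC dantrolene against TAC control hearts they were -0.07 to 0.30. Prdx5, the most abundant of them, stood at 1967, 751 and 518 CPM in TAC dantrolene hearts, 1873, 856 and 668 CPM in TAC control hearts, 725, 658 and 1220.3 CPM in sham dantrolene hearts and 741, 682 and 969 CPM in sham control hearts. The library apart was the highest in each group. Srxn1 stood at 23.5, 34.5 and 29.7 CPM in TAC dantrolene hearts, 34.9, 28.1 and 20.8 CPM in TAC control hearts, 28.4, 28.5 and 51.3 CPM in sham dantrolene hearts and 25.2, 27.1 and 25.0 CPM in sham control hearts. In CPM, though not in FPKM, each sham dantrolene heart lay above each sham control heart, by 0.49 ± 0.29 (edgeR, Benjamini-Hochberg adjusted p = 0.9999). The highest of the 12 was sham dantrolene 3, a library apart. Without the libraries apart the difference was 0.14 ± 0.22. Prdx2, which is abundant in red blood cells as well as in the heart, stood at 1249.9, 637 and 522 CPM in TAC control hearts. The summed levels of 6 erythroid markers there were 4073, 8870 and 1803 CPM. Its highest library, TAC dantrolene 1, had 1589 CPM and the highest erythroid sum, 11635 CPM, whose part in the Prdx2 values was not tested.

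The thioredoxin system passes electrons from NADPH through a reductase to thioredoxin. Cytosolic thioredoxin reductase Txnrd1 (ENSMUSG00000020250.9, chromosome 10, 82833951 to 82897712, plus strand) stood at 12.9, 54.2 and 45.1 CPM in TAC dantrolene hearts, 12.3, 24.4 and 25.0 CPM in TAC control hearts, 28.0, 32.2 and 13.7 CPM in sham dantrolene hearts and 31.4, 30.4 and 17.2 CPM in sham control hearts. In each group the library apart was the lowest, and TAC dantrolene 2 and 3 were the highest of the 12. The log2 fold change for TAC dantrolene against TAC control was 0.86 ± 0.50 (edgeR, Benjamini-Hochberg adjusted p = 0.9997). Without the libraries apart Txnrd1 was 1.01 ± 0.20 log2 units higher in TAC dantrolene hearts (edgeR adjusted p = 0.0322). Against sham dantrolene hearts the TAC dantrolene difference was 0.60 ± 0.50, and 0.68 ± 0.20 without these libraries (edgeR adjusted p = 0.438).

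Txn1, the cytosolic thioredoxin, stood at 73.2, 45.7 and 62.7 CPM in TAC dantrolene hearts, 72.7, 91.6 and 91.1 CPM in TAC control hearts, 63.3, 60.5 and 71.2 CPM in sham dantrolene hearts and 73.1, 46.5 and 59.8 CPM in sham control hearts. TAC control 2 and 3 were the highest libraries. Its log2 fold change was 0.51 ± 0.26 for TAC control against sham control and -0.49 ± 0.26 for TAC dantrolene against TAC control, with overlap in both. Txnrd2, the mitochondrial reductase, stood at 63.7, 56.0 and 48.7 CPM in TAC dantrolene hearts and 54.8, 51.8 and 36.2 CPM in TAC control hearts. It stood at 47.8, 45.4 and 55.0 CPM in sham dantrolene hearts and 53.6, 51.5 and 55.3 CPM in sham control hearts. The groups overlapped in CPM. In FPKM TAC control (14.61 to 20.17) and sham dantrolene hearts (18.27 to 20.51) lay below sham control hearts (21.34 to 23.56). The mitochondrial pair, Txn2 and Txnrd2, had folds of 0.15 ± 0.50 and -0.17 ± 0.23 for TAC control against sham control, and 0.05 ± 0.50 and 0.24 ± 0.23 for TAC dantrolene against TAC control. The sign of the first Txn2 fold turned on the FPKM scale.

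Of the 5 tested genes of glutathione synthesis, recycling and conjugation, 4 had lower values in TAC control than in sham control hearts, with log2 fold changes of -0.43 to 0.03, and 4 had higher values in TAC dantrolene than in TAC control hearts, at -0.19 to 0.42. On the FPKM scale all 5 were lower in the first. None had an unadjusted p under 0.05 with all 12 libraries. Glutathione reductase Gsr, which regenerates reduced glutathione, stood at 13.0, 22.2 and 21.9 CPM in TAC dantrolene hearts, 10.9, 15.7 and 16.2 CPM in TAC control hearts, 19.3, 20.1 and 17.8 CPM in sham dantrolene hearts and 23.0, 21.5 and 13.0 CPM in sham control hearts. The TAC control hearts overlapped with sham control 3. Glutathione synthetase Gss stood at 27.8, 21.6 and 21.4 CPM in TAC dantrolene hearts, 22.7, 16.5 and 15.1 CPM in TAC control hearts, 19.0, 19.2 and 22.2 CPM in sham dantrolene hearts and 20.3, 20.6 and 26.9 CPM in sham control hearts. Here TAC control 1 overlapped with both neighbouring groups in CPM. In FPKM the TAC control hearts (6.83 to 7.20) lay below sham control (9.72 to 11.63) and TAC dantrolene hearts (8.44 to 11.78). Gsr differed by -0.43 ± 0.30 and Gss by -0.32 ± 0.24 for TAC control against sham control, and by 0.42 ± 0.30 and 0.38 ± 0.24 for TAC dantrolene against TAC control.

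The rate-limiting enzyme of glutathione synthesis is made of a catalytic subunit (Gclc) and a modifier (Gclm). Gclc stood at 1.98, 5.51 and 7.58 CPM in TAC dantrolene hearts, 1.78, 4.47 and 5.50 CPM in TAC control hearts, 5.41, 5.57 and 1.98 CPM in sham dantrolene hearts and 4.15, 6.05 and 2.31 CPM in sham control hearts. Gclm stood at 9.43, 24.5 and 25.0 CPM in TAC dantrolene hearts, 8.35, 20.3 and 16.5 CPM in TAC control hearts, 21.6, 18.9 and 17.1 CPM in sham dantrolene hearts and 18.2, 16.9 and 12.7 CPM in sham control hearts. Both were lowest in the 4 libraries apart, save that the Gclm level of sham dantrolene 3 (17.1 CPM) was above those of TAC control 3 and sham control 2. In TAC dantrolene against TAC control hearts the log2 fold changes were 0.36 ± 0.59 and 0.38 ± 0.39. Gclm shares 244 of 6291 exonic bases with the pseudogene Gm6061 on the same strand, so some of its reads are uncertain. Gss, Prdx5 and Hmox2 share 395 of 5915, 409 of 2139 and 892 of 2217 exonic bases with the coding genes Acss2, Trmt112 and Cdip1 on the other strand, which leaves part of their reads uncertain too. The transferase Gstm1, which couples glutathione to toxic products, differed by 0.03 ± 0.31 for TAC control against sham control, a sign that turned on the FPKM scale.

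Heme oxygenase 1 (Hmox1), which degrades heme and is a classic target of NRF2, stood at 25.1, 14.4 and 13.8 CPM in TAC dantrolene hearts, 27.2, 21.2 and 18.5 CPM in TAC control hearts, 17.1, 15.7 and 28.9 CPM in sham dantrolene hearts and 14.6, 12.6 and 18.6 CPM in sham control hearts. Its log2 fold change was 0.54 ± 0.33 for TAC control against sham control and 0.43 ± 0.33 for sham dantrolene against sham control. The CPM ranges overlapped in both. In FPKM the TAC control hearts (10.22 to 11.26) lay above sham control (7.90 to 9.81) and TAC dantrolene hearts (8.26 to 9.59). The constitutive enzyme Hmox2 differed by -0.14 ± 0.24 and the quinone reductase Nqo1 by 0.20 ± 0.34 for TAC control against sham control, the second with a sign that turned on the FPKM scale.

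NRF2 and its inhibitor differed in sign. Keap1, the adaptor that targets NRF2 for degradation, stood at 50.9, 66.1 and 73.5 CPM in TAC dantrolene hearts, 66.7, 59.3 and 46.4 CPM in TAC control hearts, 79.1, 73.4 and 59.5 CPM in sham dantrolene hearts and 73.3, 84.8 and 74.4 CPM in sham control hearts. Every TAC control heart lay below every sham control heart, at a log2 fold change of -0.43 ± 0.24 (edgeR, Benjamini-Hochberg adjusted p = 0.67), and -0.60 ± 0.21 without the libraries apart (edgeR adjusted p = 0.114). Nfe2l2 itself stood at 16.3, 29.0 and 36.6 CPM in TAC dantrolene hearts, 20.2, 28.3 and 41.3 CPM in TAC control hearts, 29.5, 28.7 and 18.1 CPM in sham dantrolene hearts and 22.8, 25.0 and 18.2 CPM in sham control hearts. Its log2 fold change was 0.44 ± 0.35, with overlapping groups. Keap1 shares 510 of 4693 exonic bases with an antisense gene on the other strand.

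The catalytic subunits of the NADPH oxidases, which make superoxide on purpose, were near the bottom of the FPKM range. Nox4 (ENSMUSG00000030562.14, chromosome 7, 87246096 to 87398710, plus strand), a constitutively active oxidase of fibroblasts, endothelium and cardiomyocytes, failed the filter in the fit of 12 libraries. It had 0, 2 and 2 reads in TAC dantrolene hearts, 0, 14 and 53 reads in TAC control hearts, 0, 2 and 3 reads in sham dantrolene hearts and 4, 2 and 0 reads in sham control hearts. TAC control 2 and 3 were above the other 10 libraries and TAC control 1 had none, which allows up to 0.133 CPM by the 3-read limit, which covers counting error only. TAC control 3 alone held 53 of the 67 reads of its group. With the libraries apart left out Nox4 passed the filter, but only through those 2 TAC control libraries, so its difference from TAC dantrolene hearts is a description with no test.

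Cybb, the catalytic subunit of the phagocyte oxidase, stood at 3.00, 1.54 and 1.91 CPM in TAC dantrolene hearts, 1.47, 2.74 and 6.995 CPM in TAC control hearts, 1.39, 2.36 and 2.40 CPM in sham dantrolene hearts and 1.66, 1.62 and 2.57 CPM in sham control hearts. TAC control 3 was the highest library by far, while TAC control 1 lay within the range of the sham hearts. Its log2 fold change was 0.94 ± 0.53 for TAC control against sham control and -0.81 ± 0.53 for TAC dantrolene against TAC control. The summed level of 8 macrophage markers was 359 to 1360 CPM in TAC dantrolene and 769 to 1153 CPM in TAC control hearts. It was 519 to 1189 CPM in sham dantrolene and 430 to 811 CPM in sham control hearts, with none at 0. In every group the highest sum was that of the library apart. In TAC control 3 the sum was 876 CPM. The part of these markers' cells in the Cybb values was not tested. With the libraries apart left out, 1 of the 8 markers was higher in TAC control than in sham control hearts (background 1.18%). This was Lyz2 (1.00 ± 0.23, edgeR adjusted p = 0.0414). In that fit 3 of 8 were lower in TAC dantrolene than in TAC control hearts (background 1.53%). These were Lyz2 (-1.37 ± 0.23, edgeR adjusted p = 0.0229), Fcgr1 (-1.89 ± 0.35, edgeR adjusted p = 0.029) and C1qa (-0.99 ± 0.22, edgeR adjusted p = 0.0436). Cyba, the partner of both oxidases, differed by 0.26 ± 0.54 for TAC control against sham control, with a sign that turned on the FPKM scale.

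The drug was also given to mice without pressure overload. In sham dantrolene against sham control hearts the median log2 fold change of the redox genes was 0.09, against 0.02 over all genes, with 22 positive and 11 negative (14 and 19 on the FPKM scale), and 30 of 33 lay within 1 SE of no difference. All 5 values for catalase and the glutathione peroxidases were positive, between 0.14 and 0.37, but Gpx1 (-0.15), Gpx3 (-0.33) and Gpx4 (-0.22) turned without sham dantrolene 3 and Cat (-0.22) without sham dantrolene 1. With all libraries Cat and Gpx3 were 0.0016 and 0.0068 on the FPKM scale. In the fit of 12 libraries the 3 superoxide dismutases were negative, between -0.22 and -0.02. After Srxn1 and Hmox1 the smallest p among positive folds was that of Mt2 (0.59 ± 0.54), and without sham dantrolene 3 its fold was 0.03. The smallest p among negative folds belonged to Sod3 (-0.22 ± 0.26), Gss (-0.17 ± 0.24) and Keap1 (-0.13 ± 0.24).

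Pressure overload under the drug was read from TAC dantrolene against sham dantrolene hearts. Their redox median was 0.05, against 0.08 over all genes, with 19 positive and 14 negative (13 and 20 on the FPKM scale), and 30 of 33 lay within 1 SE of no difference. In CPM, though not in FPKM, Mt2 in TAC dantrolene hearts lay wholly below sham dantrolene hearts. Its log2 fold change was -1.15 ± 0.55 (edgeR, Benjamini-Hochberg adjusted p = 0.9999), and -0.50 ± 0.28 without the libraries apart. Srxn1 was at -0.30 ± 0.29 and Gpx8 at -0.38 ± 0.39. Srxn1 turned to 0.14 without the libraries apart. The positive folds with the smallest p were those of Txnrd1, Gss (0.23 ± 0.24) and Sod3 (0.24 ± 0.26).

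For the interaction the redox median was -0.21, against -0.01 over all genes, with 13 positive and 20 negative. On the FPKM scale it was -0.023, with 15 positive and 18 negative. It was -0.31 without the libraries apart, -0.59 without TAC dantrolene 1 and 0.014 without TAC control 1. After Mt2 the smallest p among negative values belonged to Mt1 (-0.94 ± 0.48) and Txn1 (-0.61 ± 0.36), and among positive values to Gss (0.55 ± 0.35), Txnrd1 (0.96 ± 0.70) and Txnrd2 (0.35 ± 0.32). All TAC against all sham hearts had 22 positive and 11 negative folds (11 and 22 on the FPKM scale). Averaged over the drug arms, all TAC against all sham hearts gave Sod3 0.40 ± 0.19 and Gpx3 0.56 ± 0.36 as the highest-ranked positive and Keap1 -0.29 ± 0.17 and Gsr -0.21 ± 0.21 as the highest-ranked negative folds. Averaged over surgery, all dantrolene against all control hearts gave Srxn1 0.28 ± 0.21 and Gclm 0.33 ± 0.28 among positive and Sod3 -0.38 ± 0.19 and Mt2 -0.60 ± 0.38 among negative folds. The edgeR adjusted p of these averaged folds was at least 0.724.

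Many redox genes set the same 4 libraries apart. The difference between the library apart and the mean of the other 2 of its group, in log2 CPM averaged over the 4 groups, was 1.73 for Gpx4, 1.56 for Prdx4, 1.25 for Gpx1 and 1.22 for Cyba. It was -1.41 for Gclc, -1.31 for Cat, -1.22 for Txnrd1 and -0.80 for Gclm. As the 4 libraries were identified from expression, these values are a description with no test. The libraries apart lay wholly above the other 8 in 7 of 33 redox genes (21.2%, background 11.6%) and wholly below in 4 (12.1%, background 10.3%). The direction was the same in all 4 groups for 14 genes that were higher (42.4%, background 25.2%) and for 7 that were lower (21.2%, background 27.3%). The summed level of the macrophage markers was likewise highest in the library apart of each group, and its relation to these genes was not tested.

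Prdx4, the peroxiredoxin of the endoplasmic reticulum, shows the pattern with 160.4, 23.3 and 29.9 CPM in TAC dantrolene hearts, 115, 36.8 and 36.7 CPM in TAC control hearts, 39.9, 35.6 and 109 CPM in sham dantrolene hearts and 48.6, 31.3 and 53.2 CPM in sham control hearts. The library apart was the highest in each group, least so in sham control hearts. Prdx1, Prdx2, Prdx5 and Txn2 had mean differences of 0.92, 0.98, 1.06 and 1.02, and Txnrd2, the reductase of Txn2, had 0.24. Over the 33 genes the Spearman correlation of the difference with exonic length was -0.39, beside -0.40 over 14911 genes with an annotated length, and with exonic GC content it was 0.41, beside 0.36. The points share the same 12 libraries, and no cause of this relation was tested.

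**Figure D4:**
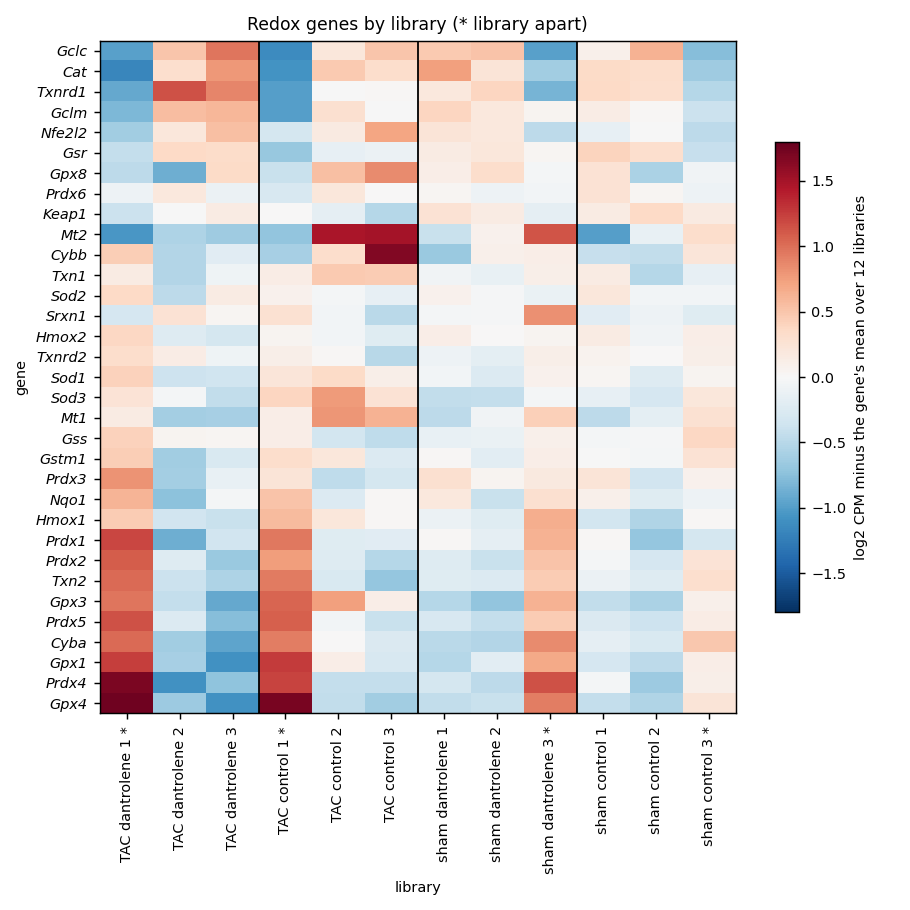
Log2 CPM minus the gene's mean over 12 libraries (colour) for 33 redox genes (rows) in 12 libraries (columns), with TAC dantrolene at the left, then TAC control, sham dantrolene and sham control. Rows are ordered by the difference between the library apart and the rest of its group, from -1.41 in Gclc to 1.73 in Gpx4, and asterisks mark the 4 libraries apart. The asterisk columns are mostly blue at the top and red at the bottom, and Mt1 and Mt2 have their highest values in TAC control 2 and 3.

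**Figure D5:**
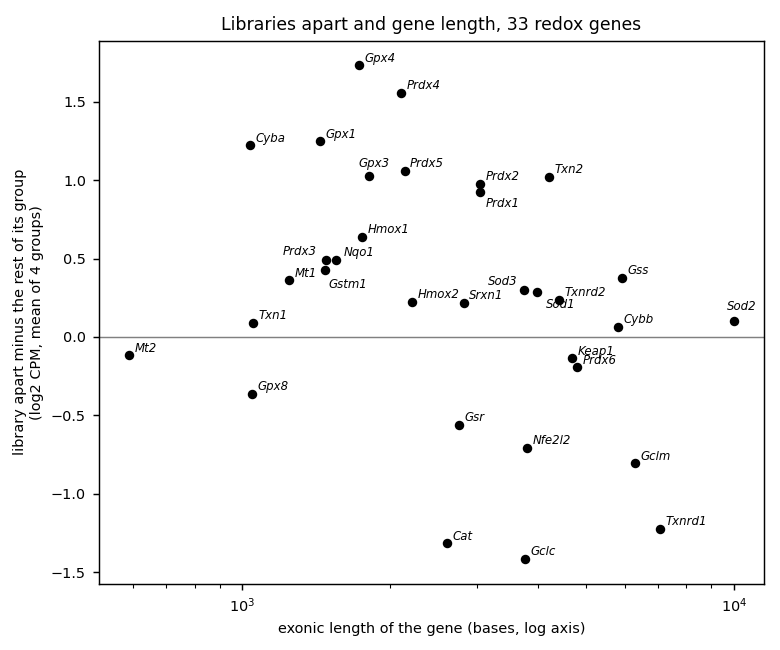
Mean difference between the library apart and the other 2 libraries of its group (vertical axis, log2 CPM, mean of 4 groups) against the exonic length of the gene (horizontal log axis, bases) for 33 redox genes. Shorter genes tend to lie higher (Spearman -0.39), with Mt2 (588 bases, -0.12) and Gpx8 (1048 bases, -0.36) among those that do not.

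The wider redox network was described with 8 lists of 122 tested genes around these 35. In the fit of 12 libraries 0 of the 122 were called in TAC control against sham control or in TAC dantrolene against TAC control hearts. At an unadjusted p under 0.05 edgeR gave 12 of 122 in the first, 4 higher and 8 lower (9.84%, background 7.93%), and 4 of 122 in the second, all higher (3.28%, background 3.25%). Without the libraries apart 4 of 123 were called in each (3.25%, background 3.21% and 3.17%). These shares are near the background, so the genes are named as a description and not as a result about the network. In TAC control against sham control these were Pdk4 (higher) and Nnt, Slc11a2 and Per1 (lower), and in TAC dantrolene against TAC control Nnt, Nfe2l1, Cpox and Per1 (all higher).

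NADPH supply, on which both thiol systems draw, held the smallest p among these lists. Nnt, the mitochondrial transhydrogenase that makes NADPH from NADH, stood at 175, 610.2 and 446 CPM in TAC dantrolene hearts, 161, 198 and 227 CPM in TAC control hearts, 612, 509 and 281 CPM in sham dantrolene hearts and 565, 579 and 474 CPM in sham control hearts. All TAC control hearts lay below all sham control hearts, and TAC dantrolene 1, a library apart, was as low as TAC control hearts. The log2 fold change was -1.47 ± 0.43 for TAC control against sham control (edgeR, Benjamini-Hochberg adjusted p = 0.474). Without the libraries apart it was -1.45 ± 0.21 (edgeR adjusted p = 0.0125), and 1.31 ± 0.21 for TAC dantrolene against TAC control (edgeR adjusted p = 0.0221). Of the 14 genes of this list 5 were positive and 9 negative for TAC control against sham control.

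The list of zinc and glucocorticoid responses gives the partners of the metallothioneins. The zinc exporter Slc30a1, induced like metallothioneins through metal response elements, stood at 6.40, 7.95 and 13.0 CPM in TAC dantrolene hearts, 3.64, 6.92 and 13.5 CPM in TAC control hearts, 6.67, 8.06 and 6.66 CPM in sham dantrolene hearts and 6.66, 7.03 and 5.48 CPM in sham control hearts. TAC control 3 and TAC dantrolene 3 were its highest libraries. Fkbp5, a glucocorticoid-induced chaperone partner, stood at 12.6, 40.2 and 20.3 CPM in TAC dantrolene hearts, 6.97, 18.1 and 23.5 CPM in TAC control hearts, 10.7, 13.0 and 12.9 CPM in sham dantrolene hearts and 6.08, 14.6 and 10.7 CPM in sham control hearts, highest in TAC dantrolene 2. A part of zinc or glucocorticoids in the metallothionein values was not tested. Both genes were chosen after their values were seen. For TAC dantrolene against TAC control 10 of the 12 tested genes of this list were positive, with a median log2 fold change of 0.55, beside 0.02 over all genes. This is a description, and no test of the list was run.

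No gene of the remaining lists was called with 12 libraries. Median log2 fold changes for TAC control against sham control were 0.22 for thiol repair and glutaredoxins, 0.05 for glutathione transferases and detoxification, 0.08 for NRF2 partners and other targets, 0.11 for oxidant sources and 0.30 for selenoproteins, beside 0.10 over all genes. The iron and heme list had -0.43, with 6 of 9 genes negative and 3 of them at an unadjusted p under 0.05 (background 3.8% lower). In CPM 5 of the 9 lay wholly lower in TAC control than in sham control hearts (background 9.82%) and 0 wholly higher (background 7.54%). These counts are small, and no test of the list was run. Its leading gene Slc11a2, an iron importer, stood at 26.4, 33.1 and 30.9 CPM in TAC dantrolene hearts, 24.5, 19.9 and 17.5 CPM in TAC control hearts, 31.9, 27.9 and 24.5 CPM in sham dantrolene hearts and 34.8, 35.4 and 30.0 CPM in sham control hearts. Each TAC control heart lay below each sham control heart, at -0.70 ± 0.22 (edgeR, Benjamini-Hochberg adjusted p = 0.512), and at -0.93 ± 0.20 without the libraries apart (edgeR adjusted p = 0.0365).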

How the data were processed

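Poly(A) RNA of 12 left ventricles was sequenced from directional libraries, per the labels' protocols. The authors deposited counts, whole reads per gene without normalisation, and a table of FPKM values, scaled to gene length and library size. Per the submitters' processing notes the build was GRCm38 and the tools included TopHat2, bcl2fastq and edgeR. The strand setting and the counting program remain not given in the sources used here, so antisense and overlapping genes may share reads. Of the columns, 0 were left without a sample.

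Counts were tested with edgeR 4.0.16 in R 4.3.3: filterByExpr (minimum count 10, total 15), TMM, 1 robust quasi-likelihood fit of 4 group means over 12 libraries (8 residual degrees of freedom, biological coefficient of variation 0.443), two-sided, with Benjamini-Hochberg adjustment over 14965 genes and a threshold of 0.05. The filter took out 0.0418% of the counts. The edgeR fit of 12 libraries was checked on simulated counts for TAC control against sham control and TAC dantrolene against TAC control only. Alternatives were DESeq2 1.42.0, limma 3.58.1 on log2(FPKM + 0.1), other filters, scalings and sample sets. Each p-value of the main fit sets a group difference against the spread between these mice. That spread was pooled over the 4 groups and moderated across genes, with pairing left out.

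Groups follow the titles. The 35 genes, the other lists and the 4 libraries apart were chosen with earlier results of these data known. Values per library are given for genes past the threshold (none), for the 3 smallest p in each direction of every pairwise comparison and the interaction, 2 for averaged ones, the 4 highest and 4 lowest in FPKM, genes that failed the filter, and at most 3 of each other list. Nfe2l2, Prdx2, Prdx4, Hspa1a, Acta1, Slc30a1 and Fkbp5 were added after their values were seen. Of the listed genes 10 were found under an older symbol. Promoters came from RefSeq and gene positions from GENCODE vM21, both on GRCm38. Coordinates are 1-based.

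Same-numbered mice deviated together within an arm (correlations over genes 0.556, 0.300 and 0.613 in TAC, 0.465, 0.366 and 0.672 in sham). Across surgery they did not (-0.294, 0.283 and -0.304 for control mice). By the rule used (every pair over 0.1) the drug groups met the condition for pairing. The main fit still left pairing out, and pairing entered only in an alternative fit, the replicate block. The labels tie a number to no litter, batch or day, sham mice 1 and 2 correlated across numbers as well (0.375 and 0.305), and the pairs numbered 1 in TAC and 3 in sham are libraries apart.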

Additional observations from a re-analysis of the deposited data

How the results depend on the processing

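With 3 mice a group the counts of called genes were near 0 and moved with the setting. Over all genes edgeR called 0 for every comparison with 12 libraries. For TAC control against sham control the count was 3 with no low-count filter, 83 by DESeq2, 1 with only the groups compared, 21 with a term for the libraries apart, 484 without them, and 0 to 15 when 1 mouse was left out (15 without TAC control 1). For TAC dantrolene against TAC control it was 1 with no filter, 12 by DESeq2, 478 without the libraries apart, and 0 to 1 with 1 mouse left out (1 without TAC control 1). DESeq2 called 4 for TAC dantrolene against sham dantrolene and 1 for the interaction, where 7 were called without the libraries apart. All TAC against all sham gave 4 with no filter, 55 by DESeq2, 6 with the term, 67 without the libraries apart and 0 to 1 with 1 mouse left out (1 without TAC control 1). All dantrolene against all control gave 1 by DESeq2.

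Redox genes were called only without the libraries apart, 2 for TAC control against sham control and 5 for TAC dantrolene against TAC control, or 4 without Nox4, which entered that test only through the group where it is high. The cause was not tested. Mt2 (1.97 and -2.09), Mt1 (-1.32) and Txnrd1 (1.01) then passed. The median of the redox genes for TAC control against sham control was -0.091 by limma on log2 FPKM and -0.0017 to 0.32 with 1 mouse left out. For TAC dantrolene against TAC control it was -0.25 without the libraries apart and -0.58 (without TAC dantrolene 1) to 0.12 (without TAC control 1). With 1 mouse left out it was -0.33 to 0.17 for TAC dantrolene against sham dantrolene, -0.59 to 0.014 for the interaction, and -0.19 to 0.11 for all dantrolene against all control. Srxn1 for TAC dantrolene against sham dantrolene turned to 0.14 without the libraries apart, and with 1 mouse left out it ran from -0.44 to 0.039 (without sham dantrolene 3). The other 740 values of named genes under alternatives kept direction and side of the threshold.

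The replicate block, which pairs same-numbered mice, called 0 genes in every comparison and changed no call of a redox gene. Depth limits Nox4, at 0 to 53 reads a library.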
